A study of Rattus norvegicus with 18 samples.

Results

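Growth factor receptor tyrosine kinases were followed here as 10 genes: Pdgfra, Pdgfrb, Egfr, Erbb2, Met, Fgfr1, Fgfr2, Mertk, Tyro3 and Ddr2. They were chosen by symbol from a list of receptors, and all 10 were present among the 13188 genes of the deposited expression table. The list was drawn up with earlier results of these data known, so counts over it are a description.

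A receptor tyrosine kinase binds a ligand outside the cell, pairs with another receptor and phosphorylates tyrosines on its own tail. Adaptors dock there and start the RAS-ERK and PI3K-AKT relays, which the cell limits with phosphatases, Sprouty and Spred proteins and receptor ubiquitination. In fibroblasts these receptors read platelet-derived, epidermal, hepatocyte and fibroblast growth factors from serum and neighbouring cells, the bridging ligands of TYRO3, AXL and MERTK (the TAM family), and collagen.

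RNA-seq was performed on 18 libraries, 6 groups of 3, from HO15.19 cells, a line of Rat1 rat fibroblasts in which both copies of the endogenous myc gene are disrupted (myc-/-). All groups share that deletion, and per the labels all were grown in DMEM with 10% FBS. Sed is the myc-/- line without human MYC and without transfection, and Sed siCtrl is the same line 48 h after transfection with 40 nM of a control siRNA. SedMYC is the line with human MYC added from a retroviral vector, without transfection, so MYC comes from a foreign promoter in a stably infected line. SedMYC siCtrl, SedMYC siAHR-2 and SedMYC siAHR-5 are the MYC line 48 h after 40 nM of the control siRNA or of either of 2 siRNAs against AHR, the aryl hydrocarbon receptor, a ligand-activated transcription factor. Nothing in the labels says that the 3 libraries of a group came from separate cultures, so p-values measure the spread between these libraries, which may be technical.

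The libraries lie on 2 scales, a 6-library set (set of 6: Sed siCtrl and SedMYC) and a 12-library set (set of 12: the other groups), and the first principal component, with 74.7% of the variance, separated them. Every comparison was therefore made inside a set: SedMYC against Sed siCtrl in the 6-library set, SedMYC siCtrl against Sed in the 12-library set, and each AHR siRNA against SedMYC siCtrl. In both MYC comparisons the transfection label changes together with MYC, but in opposite ways: the transfected libraries are those without MYC in the 6-library set and those with MYC in the 12-library set. Within either set MYC and transfection cannot be told apart. Levels below are the deposited log2 values, the log2 fold change (log2FC) is a difference between group means of those values, and levels of different genes are not ranked against each other because the values are not per gene length. The values give no counts, so the read depth is unknown. A gene passed, and is said to have risen or fallen, when its groups differed by a fold of at least 1.5 and limma gave an adjusted p of at most 0.01 over all 13188 genes.

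Ahr, the target of the siRNAs, was at 13.34, 13.26 and 13.22 in SedMYC siCtrl, at 11.97, 11.97 and 12.03 with siAHR-2 and at 11.95, 11.76 and 11.94 with siAHR-5. It fell by 1.29 and 1.39 on the log2 scale, and no library of either siRNA overlapped the controls. Ahr was at 12.50, 12.44 and 12.39 in Sed siCtrl, 12.88, 12.97 and 13.03 in SedMYC, and 12.01, 11.67 and 11.95 in Sed. The rat Myc row was lower in the libraries with human MYC, with a log2FC of -1.26 in the 6-library set and -2.68 in the 12-library set. Human MYC itself was not measured separately here.

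The fibroblast label was checked on 10 markers, and all 10 were measured. Fn1 (17.67 to 20.63 over all libraries), Vim (18.32 to 19.70) and P4hb (17.20 to 18.15) were measured in every library, as were Dcn (6.66 to 11.77), Lum (5.80 to 9.38) and Col1a2 (3.64 to 4.13). Of the epithelial, endothelial and blood cell markers 13 were measured. The 4 epithelial markers included Epcam (1.22 to 2.42) and Krt8 (6.02 to 9.05), the 4 endothelial ones Tie1 (4.50 to 5.40) and Vwf (6.85 to 10.15), and the 5 of blood cells Ptprc (2.84 to 4.65), Aif1 (2.50 to 2.65) and Cd14 (9.91 to 11.44). The summed level of the fibroblast markers was lower with MYC in both sets. Sums are taken off the log scale, so most of this one is Col1a1 (14.91 to 21.07), Fn1, Vim and P4hb. Col1a1 fell by 5.95 in the 12-library set. On the log2 scale the fibroblast sum was 20.97 to 21.00 in Sed siCtrl and 20.10 to 20.21 in SedMYC. In the 12-library set it was 22.04 to 22.25 in Sed and 20.40 to 20.43 in SedMYC siCtrl. With siAHR-2 and siAHR-5 it was 20.17 to 20.21 and 20.14 to 20.15, both below SedMYC siCtrl. The summed endothelial markers were 9.96 to 10.01, 8.70 to 8.82, 10.21 to 10.38 and 8.28 to 8.39 in the same first 4 groups, the blood cell markers 11.38 to 11.55, 10.54 to 10.65, 10.90 to 10.99 and 10.20 to 10.45, and the epithelial markers, higher with MYC, 8.18 to 8.25, 8.63 to 8.81, 7.76 to 7.92 and 8.77 to 9.11. With siAHR-2 and siAHR-5 the summed blood cell markers were 10.23 to 10.42 and 10.74 to 10.86, the latter above the controls, the endothelial markers 8.34 to 8.43 and 8.44 to 8.53, also above the controls with siAHR-5, and the epithelial markers 8.74 to 9.11 and 8.81 to 9.04. The blood cell sum is mostly Cd14, since the other blood cell markers reached at most 7.55 (Cd68). No marker was at 0. The part of these levels in the receptor results was not tested, and fewer cells of a type and less RNA per cell cannot be told apart in bulk RNA.

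One library stood apart. Sed replicate 2 differed from the mean of its 2 group mates by a median of 0.0848 over all genes, against 0.0313 to 0.0598 for the other 17 libraries measured the same way. In it 9 of the 10 receptors were below the mean of their mates, Egfr by 0.68, Met by 0.57, Mertk by 0.37 and Ddr2 by 0.33. Each receptor's log2FC in the 12-library set is therefore also given without it, as are the counts over gene lists.

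With MYC most of these receptors were lower, and Fgfr1 and Mertk were higher. In the 6-library set, 8 of 10 receptors passed, 2 higher and 6 lower, against 26.8% of all genes (12.5% higher, 14.3% lower). Of the same 10 receptors 9 passed in the 12-library set, 2 higher and 7 lower, against 25.5% of all genes (10.8% higher, 14.7% lower). The median log2FC of the 10 was -0.65 in the 6-library set and -0.72 in the 12-library set, beside medians within 0.01 of 0 over all genes. The groups did not overlap for any of the 10 in either set, which is also true of 78.8% and 70.5% of all genes. Fgfr1 and Mertk rose in both sets, and Pdgfrb, Met, Erbb2, Egfr and Fgfr2 fell in both. These 7 passed in the same direction in both sets, and 0 of the 10 passed in opposite directions. Transfection runs opposite to MYC in the 6-library set and with it in the 12-library set. The part of transfection in these changes was not tested. Pdgfra and Ddr2 passed in the 12-library set alone, and Tyro3 in the 6-library set alone.

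**Figure D1:**
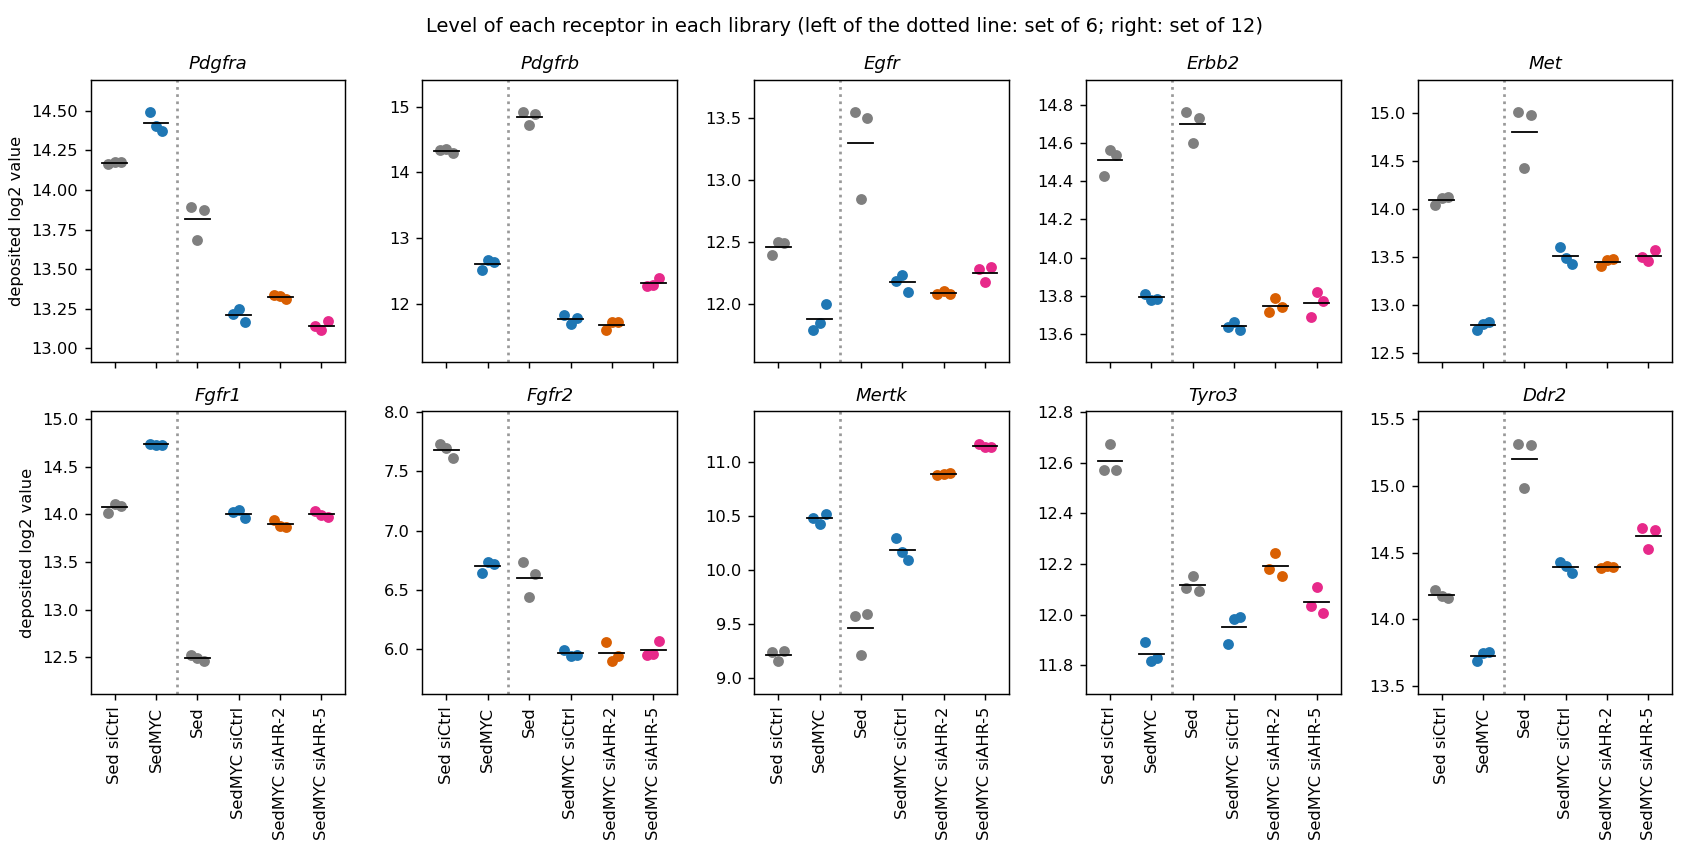
Deposited log2 value (y axis) of each of the 10 receptors in each library (points), by group (x axis), with the group mean as a bar. The dotted line divides the set of 6 from the set of 12, whose scales differ. Fgfr1 and Mertk sit higher with MYC on both sides. Within the set of 12, Mertk is highest in the 3 libraries with siAHR-5, at 11.13 to 11.16.

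Promoter sequences are shown for Mertk, the receptor that rose with MYC and with both AHR siRNAs, and for Egfr and Erbb2, partner receptors that both fell with MYC. They come from RefSeq on the build GRCr8, from 250 bases before to 50 after the annotated start, and 7 of the 10 receptors matched an entry (Pdgfrb, Fgfr1 and Ddr2 did not). Capitals mark matches, on either strand, to the letters GCGTG (the core of the AHR binding motif, CACGC on the other strand) and GGGCGG (the GC box, CCGCCC on the other strand). Mertk lies at chr3:136392324-136392623, Egfr at chr14:95378376-95378675 and Erbb2 at chr10:83907351-83907650, all on the plus strand.
Mertk: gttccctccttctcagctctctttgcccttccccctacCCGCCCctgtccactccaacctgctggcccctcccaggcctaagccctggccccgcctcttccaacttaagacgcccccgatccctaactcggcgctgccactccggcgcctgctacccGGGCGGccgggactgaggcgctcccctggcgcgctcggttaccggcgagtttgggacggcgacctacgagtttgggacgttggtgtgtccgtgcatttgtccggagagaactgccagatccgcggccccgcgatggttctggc
Egfr: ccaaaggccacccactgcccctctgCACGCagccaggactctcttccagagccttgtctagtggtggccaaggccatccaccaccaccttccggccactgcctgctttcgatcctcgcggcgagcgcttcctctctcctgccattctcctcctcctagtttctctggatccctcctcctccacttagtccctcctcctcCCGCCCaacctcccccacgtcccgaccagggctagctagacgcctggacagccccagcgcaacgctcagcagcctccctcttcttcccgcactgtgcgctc
Erbb2: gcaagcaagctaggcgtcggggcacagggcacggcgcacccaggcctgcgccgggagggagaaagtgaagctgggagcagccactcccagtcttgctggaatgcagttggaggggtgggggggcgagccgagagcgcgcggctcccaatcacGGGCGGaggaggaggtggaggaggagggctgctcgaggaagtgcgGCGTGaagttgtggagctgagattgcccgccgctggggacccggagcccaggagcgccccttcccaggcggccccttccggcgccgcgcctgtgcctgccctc
The Mertk window has 2 GC boxes and no GCGTG. Egfr and Erbb2 each have 1 of both, and no match overlaps another in these 3 windows. Over the 7 receptors matched, 3 windows hold GCGTG (Egfr, Erbb2 and Fgfr2) and 5 hold GGGCGG, against 29.7% and 33.1% of 33469 rat promoters of the same length. None of the 7 holds CACGTG, the E-box that MYC binds, which 6.42% of all promoters hold. A match is a description of letters, not of a bound site, and its absence refers to these windows alone.

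Of the PDGF receptors, Pdgfrb fell in both sets. Pdgfrb, the beta receptor for platelet-derived growth factor and a marker of mesenchymal cells, was at 14.34, 14.35 and 14.29 in Sed siCtrl and at 12.51, 12.66 and 12.64 in SedMYC. Within the 12-library set it was at 14.92, 14.73 and 14.90 in Sed and at 11.83, 11.68 and 11.79 in SedMYC siCtrl. In each set all libraries with MYC lay far below all libraries without it. Pdgfrb fell by 1.72 (SE 0.0407, limma adjusted p = 1.76e-11) in the 6-library set and by 3.08 (SE 0.0649, adjusted p = 5.85e-07) in the 12-library set, a level 8.47-fold lower and the largest change among the 10 receptors. Without Sed replicate 2 the log2FC was -3.14.

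Pdgfra, the alpha receptor, which also binds the A chain of the ligand, was at 14.17, 14.18 and 14.17 in Sed siCtrl and at 14.49, 14.40 and 14.37 in SedMYC. The SedMYC libraries were the higher ones, but the log2FC of 0.25 (SE 0.0336, adjusted p = 3.70e-05) was below the fold required. With quantile normalization it was 0.48, also below that fold. In the 12-library set Pdgfra was at 13.89, 13.68 and 13.87 in Sed and at 13.22, 13.25 and 13.17 in SedMYC siCtrl, where the libraries with MYC were the lower ones. It fell by 0.61 there (SE 0.0624, adjusted p = 2.88e-04), and by 0.67 without Sed replicate 2. That call is close to the fold cutoff: it is lost at -0.57, -0.58 and -0.58 without Sed replicate 1, Sed replicate 3 or SedMYC siCtrl replicate 3, at -0.56 with each library centred on its median and at -0.55 with quantile normalization.

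In the EGF receptor family Egfr and Erbb2 fell with MYC. Egfr, the receptor for EGF, TGF-alpha and HB-EGF, was at 12.39, 12.50 and 12.49 in Sed siCtrl and at 11.79, 11.84 and 11.99 in SedMYC. On the scale of the 12-library set it was at 13.55, 12.85 and 13.51 in Sed and at 12.18, 12.23 and 12.10 in SedMYC siCtrl. The groups were separate in both sets, and Sed replicate 2 lay far below its mates. Egfr fell by 0.59 (SE 0.0531, adjusted p = 1.22e-06) in the 6-library set and by 1.13 (SE 0.192, adjusted p = 0.00266) in the 12-library set, and by 1.36 without Sed replicate 2.

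Of the MYC calls, those of Egfr were the ones most often lost when 1 library was left out. In the 6-library set the fold cutoff is missed without Sed siCtrl replicate 2 or 3 or without SedMYC replicate 1 or 2, where the log2FC was -0.57, -0.57, -0.54 and -0.57. It is also missed with quantile normalization (-0.54) and with a pseudocount of 32 (-0.58). In the 12-library set the adjusted p was above 0.01 (0.0107, 0.0117, 0.0135, 0.0123 and 0.0154) without Sed replicate 1 or 3 or without SedMYC siCtrl replicate 1, 2 or 3, where the log2FC was -1.01, -1.03, -1.14, -1.16 and -1.09.

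Erbb2 encodes HER2, which has no ligand of its own and pairs with the other family members. It was at 14.43, 14.56 and 14.54 in Sed siCtrl and at 13.81, 13.78 and 13.78 in SedMYC, and at 14.76, 14.60 and 14.73 in Sed and 13.64, 13.66 and 13.62 in SedMYC siCtrl. The MYC libraries were the lower ones in both sets, with little spread. Erbb2 fell by 0.72 (SE 0.0363, adjusted p = 8.18e-09) and by 1.05 (SE 0.0469, adjusted p = 8.66e-06), and by 1.10 without Sed replicate 2. With quantile normalization the first of these was -0.50, short of the fold. Erbb3, its kinase-impaired partner, rose with log2FC of 0.61 and 0.99, and Erbb4 was not among the genes measured.

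Met, the receptor for hepatocyte growth factor (scatter factor), fell by nearly the same amount in both sets. It was at 14.04, 14.12 and 14.13 in Sed siCtrl and at 12.74, 12.80 and 12.83 in SedMYC. Within the 12-library set it was at 15.01, 14.42 and 14.98 in Sed and at 13.61, 13.50 and 13.42 in SedMYC siCtrl. Again the groups were separate and Sed replicate 2 was the lowest of its group. The log2FC was -1.31 (SE 0.0351, adjusted p = 4.65e-11) in the 6-library set and -1.30 (SE 0.165, adjusted p = 7.48e-04) in the 12-library set, and -1.49 without Sed replicate 2. Its ligand Hgf had a log2FC of 0.05 and 0.02, and the related receptor Mst1r 0.06 and -0.04, none past the cutoffs.

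The FGF receptors also moved in opposite directions. Fgfr1, the FGF receptor typical of mesenchymal cells, was at 14.02, 14.11 and 14.09 in Sed siCtrl and at 14.74, 14.73 and 14.73 in SedMYC. On the scale of the 12-library set it was at 12.53, 12.49 and 12.46 in Sed and at 14.02, 14.04 and 13.96 in SedMYC siCtrl. Libraries with MYC were higher in both sets, and Sed replicate 2 lay between its mates. Fgfr1 rose by 0.66 (SE 0.0308, adjusted p = 4.09e-09) in the 6-library set and by 1.52 (SE 0.0351, adjusted p = 7.84e-07) in the 12-library set, a level 2.86-fold higher, and by 1.52 also without Sed replicate 2.

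Fgfr2, whose splice forms serve epithelium and mesenchyme, fell in both sets. It was at 7.73, 7.70 and 7.62 in Sed siCtrl and at 6.64, 6.74 and 6.72 in SedMYC, and at 6.73, 6.44 and 6.63 in Sed and 5.99, 5.95 and 5.96 in SedMYC siCtrl. The groups did not overlap in either set. Fgfr2 fell by 0.98 (SE 0.0593, adjusted p = 3.63e-08) and by 0.63 (SE 0.0787, adjusted p = 6.63e-04), and by 0.72 without Sed replicate 2. The call in the 12-library set is lost without Sed replicate 1, at -0.57, with quantile normalization, at -0.48, and with a pseudocount of 32, at -0.45. Of the other FGF receptors Fgfr3 rose by 0.86 and 0.70, and Fgfr4 by 0.79 in the 6-library set, with 0.39 in the 12-library set, short of the fold.

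In the TAM family Mertk rose while its relatives did not. Mertk, known for triggering the uptake of dying cells, was at 9.24, 9.16 and 9.26 in Sed siCtrl and at 10.49, 10.43 and 10.52 in SedMYC. Within the 12-library set it was at 9.57, 9.22 and 9.60 in Sed and at 10.30, 10.17 and 10.09 in SedMYC siCtrl. All libraries with MYC were the higher ones. The log2FC was 1.26 (SE 0.0533, adjusted p = 1.79e-09) in the 6-library set and 0.73 (SE 0.120, adjusted p = 0.00236) in the 12-library set, and 0.60 without Sed replicate 2. Without SedMYC siCtrl replicate 1 or replicate 2 the adjusted p in the 12-library set was 0.0124 or 0.0119, with log2FC of 0.67 and 0.73.

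Tyro3 was at 12.57, 12.67 and 12.57 in Sed siCtrl and at 11.89, 11.82 and 11.83 in SedMYC, and fell by 0.76 (SE 0.0403, adjusted p = 1.21e-08). In the 12-library set it was at 12.11, 12.15 and 12.09 in Sed and at 11.88, 11.98 and 11.99 in SedMYC siCtrl. These groups were also separate, but the log2FC was -0.17 (SE 0.0419, adjusted p = 0.0144) and -0.15 without Sed replicate 2, past neither cutoff. Axl, the third TAM receptor, fell by 1.35 in the 6-library set. It was at 16.61, 16.47 and 16.60 in Sed and at 14.32, 14.41 and 14.36 in SedMYC siCtrl, a level 4.58-fold lower. Of their ligands, Gas6 fell by 2.02 and 2.38, and Pros1 had a log2FC of -0.50 in the 6-library set and fell by 0.75 in the 12-library set.

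Ddr2, a receptor activated by fibrillar collagen, was at 14.22, 14.17 and 14.16 in Sed siCtrl and at 13.68, 13.75 and 13.75 in SedMYC. The MYC libraries were lower, but the log2FC of -0.45 (SE 0.0314, adjusted p = 1.16e-07) was short of the fold. With quantile normalization it was -0.24. In the 12-library set Ddr2 was at 15.31, 14.98 and 15.31 in Sed and at 14.43, 14.40 and 14.34 in SedMYC siCtrl, and fell by 0.81 (SE 0.0957, adjusted p = 5.33e-04), or by 0.92 without Sed replicate 2. Its relative Ddr1 had a log2FC of -0.44 in the 6-library set and fell by 0.92 in the 12-library set. Fibrillar collagen genes, which encode chains of its ligands, did not move in a single direction. Col1a1 fell by 1.73 and 5.95 and Col5a1 by 0.78 and 1.34, while Col3a1 rose by 1.30 in the 6-library set and had a log2FC of -0.08 in the 12-library set. Col1a2 (-0.13 and -0.16) and Col2a1 (0.44 and 0.58) passed in neither set. Col1a2 was low, at 3.64 to 4.13 over all libraries against 14.91 to 21.07 for Col1a1. Whether a change of Col1a2 could show at that level was not tested.

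**Figure D2:**
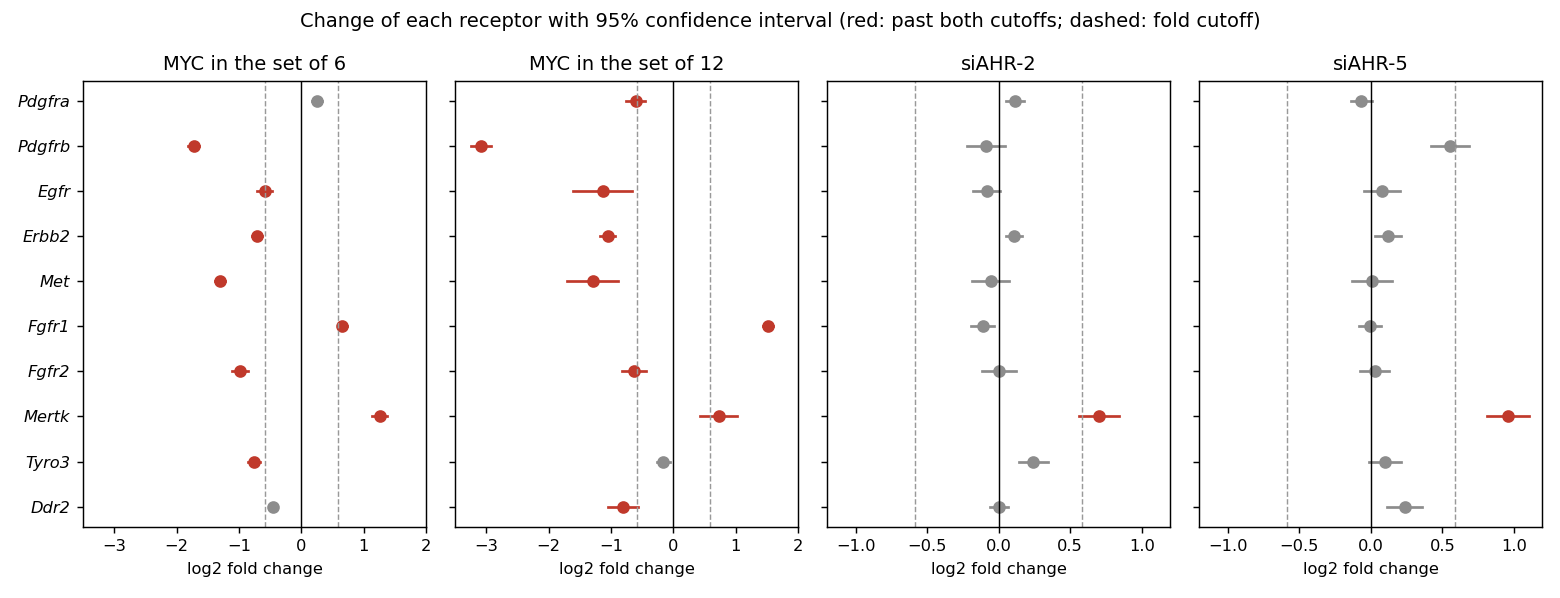
Log2 fold change (x axis) of each receptor (y axis) with its 95% confidence interval in the MYC comparisons and with each AHR siRNA. Red marks a receptor past both cutoffs, dashed lines the fold cutoff, and the 2 panels on the right have a narrower axis. Mertk is the receptor past the cutoffs in all 4 panels, with log2FC of 1.26, 0.73, 0.70 and 0.96.

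The size of the MYC effect was compared between the sets in a single fit of 12 libraries, 12-library set minus 6-library set. Of the 10 receptors 4 passed, against 16.5% of all genes. The fall of Pdgfrb was larger in the 12-library set by 1.36 (SE 0.0788, limma adjusted p = 2.00e-09) and the rise of Fgfr1 larger by 0.86 (SE 0.0526, adjusted p = 3.74e-09). For Pdgfra the difference was -0.85 (SE 0.0721, adjusted p = 1.24e-07) and for Tyro3 0.59 (SE 0.0644, adjusted p = 1.88e-06). For Met the difference was 0.01 (95% confidence interval -0.32 to 0.34), and it ran from -0.18 to 0.11 when 1 library was left out. Tyro3 fell short of the fold, at 0.56 to 0.58, in 5 of the 12 fits that left out a library (Sed replicate 3, Sed siCtrl replicate 2, SedMYC replicate 2, SedMYC siCtrl replicate 2 or 3). Mertk (-0.53) and Egfr (-0.54) were short of the fold with all libraries and reached -0.66 and -0.77 without Sed replicate 2, so that 6 receptors then passed, and Mertk reached -0.59 without SedMYC siCtrl replicate 1. The part of the different scales and of transfection in these differences was not tested.

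With the AHR siRNAs Mertk alone of the 10 receptors passed, and it rose with both. Mertk was at 10.30, 10.17 and 10.09 in SedMYC siCtrl, at 10.88, 10.89 and 10.90 with siAHR-2 and at 11.16, 11.13 and 11.14 with siAHR-5. The 3 groups were separate and in that order, and Sed, at 9.22 to 9.60, was lower than all of them. Mertk rose by 0.70 with siAHR-2 (SE 0.0568, limma adjusted p = 0.00122), a level 1.63-fold higher, and by 0.96 with siAHR-5 (SE 0.0579, adjusted p = 3.86e-04), a level 1.94-fold higher. In a limma fit with the replicate number as a block the siAHR-2 call was lost. The log2FC was still 0.70 (adjusted p = 0.0151), and 0 of all genes were called. With each siRNA 1 of 10 receptors passed, against 0.47% of all genes with siAHR-2 and 2.32% with siAHR-5. Both siRNAs were compared with the same 3 control libraries, which are also the MYC libraries of the 12-library set. The summed blood cell markers were also above the controls with siAHR-5 (10.74 to 10.86 against 10.20 to 10.45) and overlapped them with siAHR-2 (10.23 to 10.42). The endothelial sum was above the controls with siAHR-5 too (8.44 to 8.53 against 8.28 to 8.39). The fibroblast sum was below the controls (20.40 to 20.43) with both, at 20.17 to 20.21 with siAHR-2 and 20.14 to 20.15 with siAHR-5. The part of these markers in the rise of Mertk was not tested.

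The other 9 receptors had log2FC between -0.11 and 0.24 with siAHR-2, with Tyro3 at 0.24 (adjusted p = 0.0101) the nearest to passing. Tyro3 was at 12.18, 12.24 and 12.15 with siAHR-2, above all of its controls, and at 12.04, 12.11 and 12.01 with siAHR-5, also above them. Pdgfra was at 13.31 to 13.34 with siAHR-2, above its controls, and at 13.12 to 13.17 with siAHR-5, overlapping them. Groups did not overlap for 5 of 10 receptors with either siRNA, beside 43.3% of all genes with siAHR-2 and 50.5% with siAHR-5. Axl, the other TAM receptor, had a log2FC of -0.20 with siAHR-2 and 0.30 with siAHR-5, both short of the fold.

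Pdgfrb set the siRNAs apart. It was at 11.60, 11.71 and 11.72 with siAHR-2, overlapping the controls, and at 12.27, 12.29 and 12.40 with siAHR-5, above all of them. Its log2FC against the controls was -0.09 and 0.55 (SE 0.0528, adjusted p = 0.00104), the second just under the fold. In the direct comparison Pdgfrb was higher with siAHR-5 than with siAHR-2 by 0.64 (SE 0.0498, adjusted p = 4.86e-04). It was the receptor of the 10 that passed there, against 2.18% of all genes. Mertk was higher with siAHR-5 by 0.26 (adjusted p = 9.43e-04), Ddr2 by 0.23 (adjusted p = 0.00959) and Pdgfra lower by 0.18 (log2FC -0.18, adjusted p = 0.00146), all short of the fold.

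For Egfr, Erbb2, Met, Fgfr1 and Fgfr2 the AHR siRNA groups lay close to SedMYC siCtrl and away from Sed. Egfr was at 12.08 to 12.10 with siAHR-2 and at 12.17 to 12.30 with siAHR-5, both overlapping the controls. Erbb2 was at 13.72 to 13.79 and at 13.69 to 13.82, above the controls in both, with log2FC of 0.11 and 0.12. Met was at 13.40 to 13.48 and at 13.46 to 13.58, and Fgfr2 at 5.90 to 6.06 and at 5.95 to 6.07, all overlapping the controls. Fgfr1 was at 13.87 to 13.94 with siAHR-2, below the controls (log2FC -0.11, adjusted p = 0.0504), and at 13.97 to 14.04 with siAHR-5, overlapping them. Ddr2 was at 14.39 to 14.40 with siAHR-2, within its control range, and at 14.53 to 14.68 with siAHR-5, above it (log2FC 0.24, adjusted p = 0.0148).

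Differences between related receptors inside a library, which a uniform shift of a library would not move, were computed after the values above had been seen and carry no test. Pdgfra minus Pdgfrb was -0.15 on average in Sed siCtrl and 1.82 in SedMYC, and -1.03 in Sed and 1.45 in SedMYC siCtrl. The change was 1.97 and 2.48, with no overlap between groups. The same difference was 1.65 with siAHR-2 and 0.82 with siAHR-5. Fgfr1 minus Fgfr2 changed by 1.64 and 2.15 with MYC, and Mertk minus Axl by 2.61 and 2.92. Mertk minus Tyro3 changed by 2.02 and 0.89 with MYC, and by 0.46 with siAHR-2 and 0.86 with siAHR-5. Without Sed replicate 2 the changes in the 12-library set were 2.47, 2.23, 2.84 and 0.75 in the order of the pairs given. In all 4 pairs the libraries with MYC lay on the same side of those without it in both sets, further toward Pdgfra, Fgfr1 or Mertk.

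**Figure D3:**
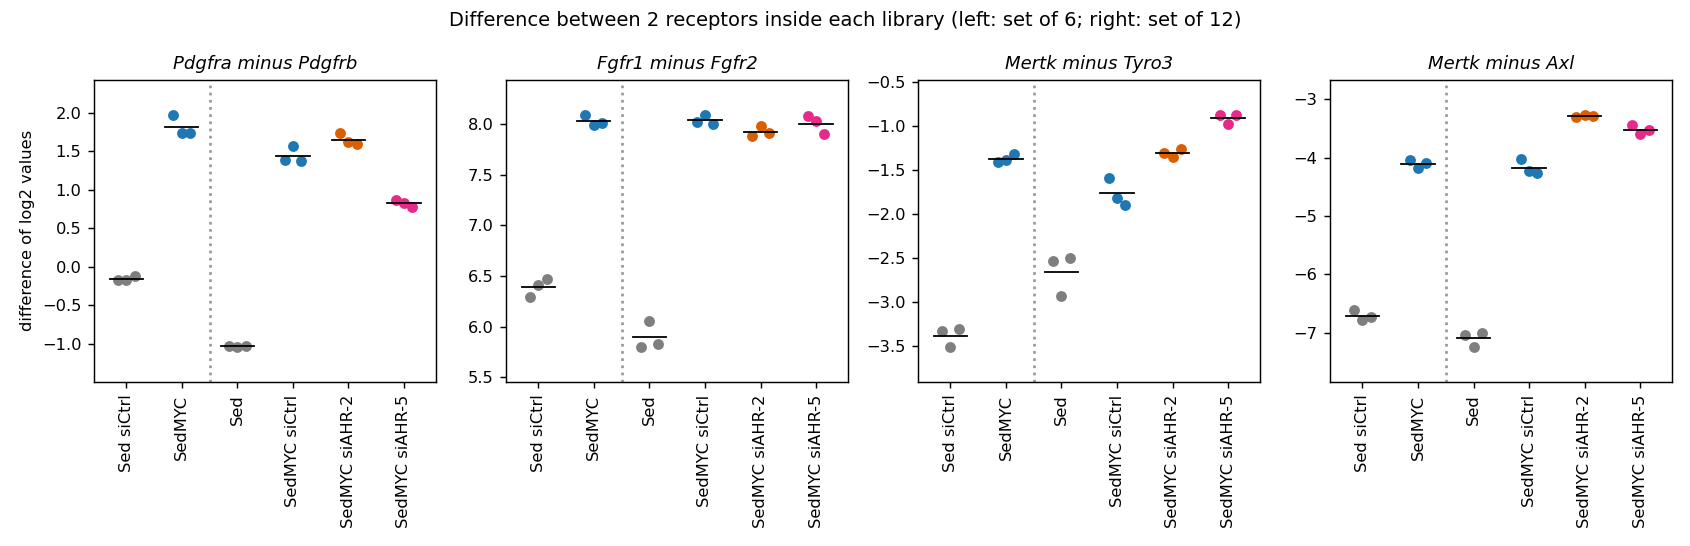
Difference of the log2 values of 2 related receptors inside each library (y axis; points) by group (x axis), with the group mean as a bar and a dotted line between the sets. Values are comparable between groups of a panel, not between panels. Pdgfra minus Pdgfrb changes by 1.97 and 2.48 with MYC, and lies lower with siAHR-5 (0.82) than with siAHR-2 (1.65).

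Genes around the receptors were counted in 5 lists, to be read beside the 26.8% and 25.5% of all genes that passed in the 6-library and the 12-library set. The ligand list held 28 measured genes, of which Fgf11 and Fgf13 encode intracellular FGF homologues and the other 26 ligands, a split made after the values were seen. Of the 26 ligands, 13 passed in the 6-library set (2 higher, 11 lower) and 11 in the 12-library set (1 higher, 10 lower), and 7 fell in both. With Fgf11 and Fgf13 included these counts are 15 (3 higher, 12 lower), 12 (1 higher, 11 lower) and 8. By the mean size of both log2FC, the leading genes of the list that fell in both were Col1a1 and Gas6 (above), Fgf7, a ligand of epithelial FGFR2 (-1.71 and -2.31), Tgfa, a ligand of EGFR (-1.84 and -0.77), and the homologue Fgf13 (-0.63 and -1.60). The median log2FC of the 26 ligands was -0.25 in both sets, and -0.16 in the 12-library set without Sed replicate 2. Of 29 other receptor tyrosine kinases, 8 passed in the 6-library set (4 higher, 4 lower) and 9 in the 12-library set (2 higher, 7 lower). Kit, the stem cell factor receptor, fell by 3.84 and 5.48 and Ror2, a WNT5A receptor, by 2.72 and 4.14, both by more than any of the 10 receptors in the same set.

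Among 30 relay genes, 5 passed in the 6-library set and 4 in the 12-library set, all lower. Akt1, the kinase downstream of PI3K, fell by 0.81 and 1.37, Pik3r1, a regulatory subunit of PI3K, by 0.73 and 0.78, and the adaptor Gab2 by 0.86 and 0.61. Of 18 feedback inhibitors 8 passed in each set, 4 higher and 4 lower in the 6-library set and 5 higher and 3 lower in the 12-library set. Ptprj, a receptor phosphatase, rose by 2.64 and 2.66, Dusp4 by 1.37 and 0.68 and Dusp6, a phosphatase of ERK, by 0.71 and 1.28. Dusp7, also an ERK phosphatase, fell by 1.19 and 1.11, and Ptpn1, which dephosphorylates receptors, by 0.92 and 1.30.

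Of 9 transcripts that ERK signalling is known to raise, 6 passed in the 6-library set (4 higher, 2 lower) and 8 in the 12-library set (6 higher, 2 lower), with medians of 0.56 and 0.68. The transcription factors Egr1 (1.38 and 2.25), Etv1 (1.18 and 2.31), Fos (1.76 and 0.68) and Etv5 (1.23 and 0.91) rose in both sets. Ccnd1, cyclin D1, fell in both, by 1.52 and 0.89. Without Sed replicate 2, 13 of the 26 ligands (Pdgfb and Col2a1 gained), 9 other receptors, 4 relays, 7 inhibitors (Lrig2 lost) and 8 ERK output transcripts passed in the 12-library set. The list of ERK output transcripts did not move as a whole in a single direction with MYC, and its transcripts also respond to signals other than these receptors.

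**Figure D4:**
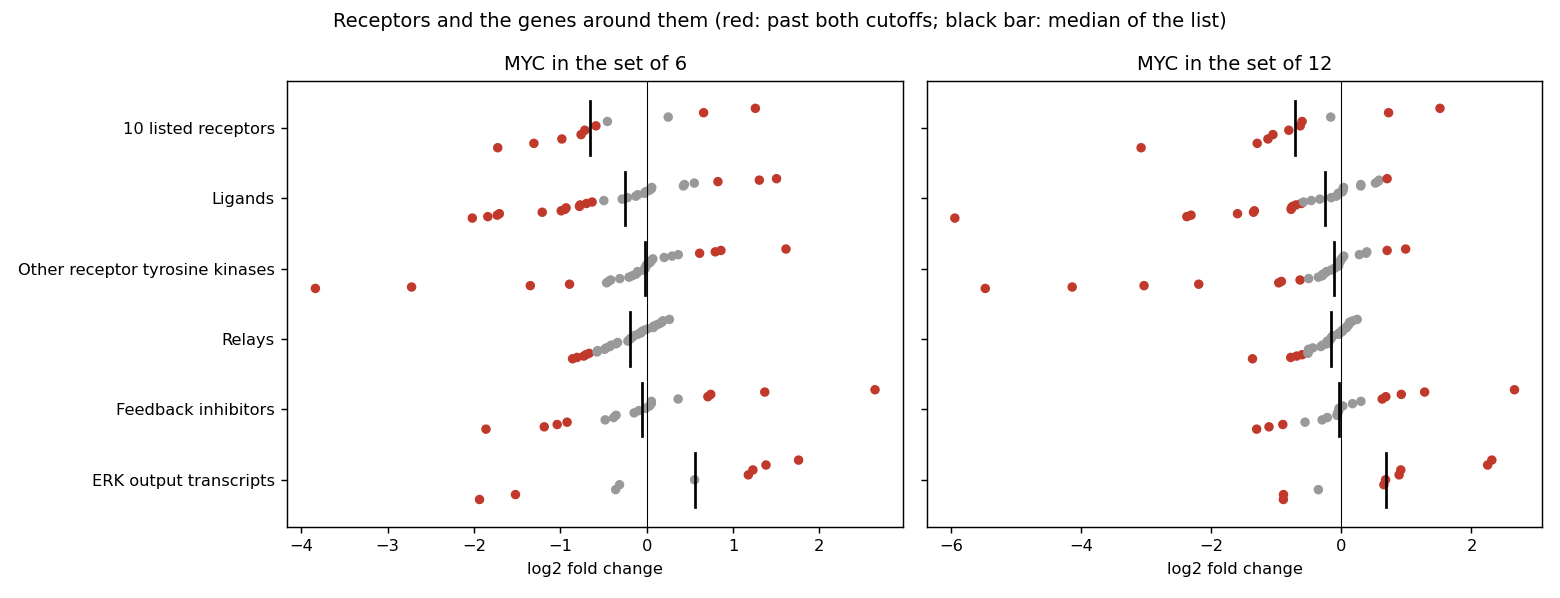
Log2 fold change with MYC (x axis) of the 10 receptors and of the measured genes of the 5 lists (y axis), in the set of 6 and the set of 12. Each point is a gene, red where past both cutoffs, and black bars are list medians. The receptor medians are -0.65 and -0.72, the ERK output medians 0.56 and 0.68, and the horizontal scales of the panels differ.

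With siAHR-2 limma called 0 of the 114 genes of the 5 lists, against 0.47% of all genes, while 12 genes of the ligand list (11 of the 26 ligands), 4 other receptors, 13 relays, 8 inhibitors and 7 ERK output transcripts were under 0.05 before adjustment of p, beside 40.4% of all genes. Those called after siAHR-5 numbered 2 of 114, or 1.75%, against 2.32% of all genes, Fgf7 (9.33, 9.37 and 9.37 in the controls, 10.11, 10.05 and 10.15 with siAHR-5, log2FC 0.74) and Spred3, an inhibitor of RAF activation (log2FC 0.73, and 0.58 with quantile normalization, where the call is lost). In the direct comparison 2 of the 114 passed, or 1.75%, against 2.18% of all genes. They were Hbegf, an EGFR ligand, and Fosl1, named after their values were seen, higher with siAHR-5 by 0.64 and 0.72. The ligand list had 1 higher and 1 lower gene there with median centring, with quantile normalization or without SedMYC siAHR-5 replicate 1. Mean levels of Hbegf were 12.05 with siAHR-2 and 12.69 with siAHR-5, with the controls between them at 12.48. For the 9 ERK output transcripts the median log2FC was -0.16 with siAHR-2 (3 above 0, 6 below). With siAHR-5 it was 0.39 (9 above 0), beside 0.01 over all genes. Between the siRNAs their median was 0.38 (8 higher with siAHR-5, 1 lower), also beside 0.01 over all genes.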

How the data were processed

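Poly-A RNA of the 18 samples was sequenced by a service provider. Per the labels and the study's methods, the authors aligned reads to rn6 using HISAT2 2.1.0, dropped genes below 10 total reads, normalized by DESeq2, and deposited log2 values for 13188 genes with replicates kept apart. The read counter and annotation are not given in the sources used here. The table is called log CPM, but library sums off the log scale run from 86.3 to 161 times what CPM would give, so the values are not CPM, and the transformation is unknown. Whether it shrinks differences at low values was not tested, and depth and its precision are unknown. Value columns without a sample numbered 0.

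Groups were taken from the sample labels. limma 3.58.1 (R 4.3.3; lmFit, then eBayes with a trend) was applied to the deposited log2 values, since a count test cannot be used on them. Each fit held only the groups compared, or 4 groups for the difference of the MYC effects, and p-values were adjusted by Benjamini-Hochberg over all genes. The 10 receptors, the 5 pathway lists and the markers were chosen with earlier results of these data known. Named genes are the receptors, other members of their subfamilies, at most 5 per list past the cutoffs in both MYC comparisons in 1 direction, those past them with either AHR siRNA, and Myc and Ahr. Hgf, Pros1, Hbegf, Fosl1, Fgf11, the collagens other than Col1a1, genes gained or lost without 1 library, and markers are named outside that rule. Alternatives were an FDR of 5% with no fold cutoff, a fit of all libraries of a set, no trend, quantile normalization, median centring, a filter on mean log2 values under 5, pseudocounts of 1 and 32, a replicate block, and omission of single libraries. Promoters came from a RefSeq table on GRCr8, not the alignment's build. Plots used matplotlib 3.10.9 and Python 3.11.15. Protein and cell assays were not analysed here.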

Additional observations from a re-analysis of the deposited data

Results flagged for a closer look

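The effect of MYC differed between the 12-library set and the 6-library set for 4 of the 10 receptors, by the limma contrast of the effects in one fit of 12 libraries. The difference, 12-library set minus 6-library set, was -1.36 for Pdgfrb, which fell in both sets, and 0.86 for Fgfr1, which rose in both. It was -0.85 for Pdgfra, with effects of 0.25 and -0.61, and 0.59 for Tyro3, with effects of -0.76 and -0.17. With quantile normalization the Pdgfra effects were 0.48 and -0.55. The Tyro3 difference lies close to the fold cutoff. It was 0.58, 0.56, 0.58, 0.58 and 0.58, under the cutoff, without Sed replicate 3, Sed siCtrl replicate 2, SedMYC replicate 2, SedMYC siCtrl replicate 2 or SedMYC siCtrl replicate 3. The sets differ in scale and in which MYC group was transfected, and these cannot be told apart from a difference in the MYC effect.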

How the results depend on the processing

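Directions of the called receptor changes held under every alternative run, and no call reversed sign. The median log2FC of all genes moved by up to 0.02 with quantile normalization and up to 0.09 with median centring. With quantile normalization 6 receptors passed in the 6-library set (Erbb2 at -0.50 and Egfr at -0.54 were lost) and 7 in the 12-library set (Pdgfra at -0.55 and Fgfr2 at -0.48 were lost), and the difference of the MYC effects gained Mertk (-0.66), making 5. Median centring lost Pdgfra in the 12-library set (-0.56), and the pseudocount of 32 lost Egfr in the 6-library set (-0.58) and Fgfr2 in the 12-library set (-0.45). At an FDR of 5% with no fold cutoff, 10 receptors passed in each MYC comparison (76.2% of all genes in the 6-library set and 64.7% in the 12-library set), 9 in their difference (54.9% of all genes), 4 for siAHR-2 (29.3%), 3 for siAHR-5 (39.2%) and 7 between the siRNAs (39.1%). Leaving out 1 library gave 7 to 8 receptors in the 6-library set, 6 to 9 in the 12-library set, 3 to 6 in the difference, and 1 with each AHR siRNA and between them. Same-numbered libraries did not deviate together (correlations -0.256 to 0.242), so the numbers were not taken to pair samples. With the replicate block 8, 9 and 4 receptors passed in the MYC comparisons and their difference and 1 with siAHR-5 and between the siRNAs, while with siAHR-2 limma called 0 receptors and 0 of all genes (5 receptors and 5030 genes had an unadjusted p under 0.05, and Mertk had an adjusted p of 0.0151). Among the inhibitors, Spred3 was lost with quantile normalization. One fit of all libraries of a set changes nothing in the 6-library set, which holds the 2 groups alone. No depth limit can be given, because the values hold no counts.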
